A study of Mus musculus with 13 samples.

Results

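Cd28, Cd69 and Tnfrsf9 are 3 of the 94 genes measured by quantitative PCR in single CD8+ T cells of mice, and they were taken by gene name, each from its own TaqMan assay. Cd28 encodes the costimulatory receptor that T cells carry at rest. Cd69 encodes a surface protein that appears early after the T cell receptor is engaged. Tnfrsf9 encodes 4-1BB (CD137), a costimulatory receptor of the tumour necrosis factor receptor family that is induced by activation. All 1449 cells were read for all 3 genes. Cd28 was found in 470 cells (32.4%, exact 95% binomial interval 30.03 to 34.9%), Cd69 in 113 (7.80%, 6.47 to 9.30%) and Tnfrsf9 in 77 (5.31%, 4.22 to 6.60%).

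The cells fell into 13 populations, each 1 sample of 48 to 154 cells. Apart from the naive cells, which were not activated, the populations are labelled as activated by recombinant Listeria monocytogenes that expresses ovalbumin. The T cells were CD45.1+ and transgenic for OT-1, a receptor for an ovalbumin peptide, so they share 1 specificity. Where a host is described, it was a CD45.2 wild-type mouse that kept its own T cells and received 5000 colony-forming units of the bacterium. Splenocytes were stained for CD8, CD4 and CD44 and for the myeloid markers CD11b, CD11c and F4/80, and single cells were sorted. The strain is given as C57BL/6J, without age or number of mice. The naive population (149 cells) was taken at day 0. The populations of day 2 were cells after their first division (144 cells, from recipients of 2000000 dye-labelled cells), proximal daughters (83 cells) and distal daughters (48 cells). Bulk responders, called unsorted here because no subset is named, were taken at day 3 (143 cells, after transfer of 20000), day 5 (154 cells) and day 7 (134 cells). Short-lived effector cells (Tsle) numbered 79 at day 5 and 89 at day 7, and memory precursors (Tmp) numbered 90 at day 5 and 62 at day 7. Effector memory cells (Tem, 136 cells) and central memory cells (Tcm, 138 cells) came from day 45. Cells of days 5, 7 and 45 came from recipients of 5000 T cells, so time and the number transferred cannot be told apart between day 2, day 3 and day 5.

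With 1 sample per population there is no replicate, so no test was made and no p-value is given. Intervals are exact (Clopper-Pearson) 95% binomial intervals over cells and cover counting error only. Where a transcript was found in no cell, the share that 0 allows is given as 3 cells of the total, which is lower than the upper end of the exact interval. A deposited value of 0 stood for no detection. Values above 0 grow with the amount of template and were read as 40 minus Ct, where Ct is the PCR cycle at which the product crosses its threshold, so that 1 unit is 1 cycle. A share below is the percentage of cells with a value above 0, and a height is the median value in those cells. In each population the first and the last columns in file order, in 2 groups of equal size to within 1 cell, are called its earlier and later columns. With the 3 genes left out, a median of 10 (Tem) to 18 (unsorted day 5) assays were above 0 in a cell. Ptprc was found in 94.3% of cells and Cd8a in 48.0%, while Cd4 and Foxp3 were each found in 2 of 1449 cells.

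T cells need a signal from their receptor and a second one from costimulation. CD28 binds CD80 and CD86 on the presenting cell and lowers the threshold for proliferation and interleukin-2 production. CD69 binds the sphingosine 1-phosphate receptor S1PR1 and removes it from the surface, which holds recently activated lymphocytes in lymphoid tissue. 4-1BB is triggered by its ligand 4-1BBL and supports the survival of CD8+ T cells through NF-kappa B.

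Promoter sequence from RefSeq (assembly GRCm38.p6) was at hand for 1 of the 3 genes, Tnfrsf9, with windows at 2 transcription starts, and is shown because Tnfrsf9 was found mainly at days 2 and 3. Which start the assay's transcript uses was not determined. The last 100 bases before each start are printed 5′ to 3′ on the plus strand, at chr4:150920055-150920154 for the upstream start and chr4:150927899-150927998 for the downstream start. Capitals mark matches to the kappa B consensus, which NF-kappa B binds, and to the AP-1 motif TGANTCA, searched on both strands after the sequences had been seen.
Tnfrsf9, upstream start: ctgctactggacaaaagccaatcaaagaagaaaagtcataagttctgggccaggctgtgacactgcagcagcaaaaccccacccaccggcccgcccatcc
Tnfrsf9, downstream start: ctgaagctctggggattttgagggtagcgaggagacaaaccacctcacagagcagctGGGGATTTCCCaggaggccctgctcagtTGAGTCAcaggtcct
The downstream window held 2 overlapping kappa B matches, which begin 43 and 42 bases before the start, and 1 AP-1 match that begins 15 bases before it. The upstream window held neither. Of 32841 promoter windows in the table, each of 300 bases, 8.46% held a kappa B match, 7.81% an AP-1 match and 0.539% both.

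Cd28 was the most widespread of the 3 transcripts, and its share was lowest in distal and naive cells and highest in day 5 Tmp and proximal cells. The proximal share rests on low values: 24.1% of proximal cells lay above 8 and 0% above 12, the lowest share above 12 of the 13 populations. It was found in 12.8% of naive cells (7.86 to 19.2%), 39.6% of first-division cells (31.5 to 48.1%), 54.2% in proximal daughters (42.9 to 65.2%) and 10.4% in distal daughters (3.47 to 22.7%). At day 3 the share was 20.3% (14.0 to 27.8%), and in unsorted cells it was 42.9% at day 5 (34.9 to 51.1%) and 44.03% at day 7 (35.5 to 52.9%). Naive and day 3 cells thus lay low, and unsorted cells of days 5 and 7 lay above both. Among sorted cells the share was 24.1% in day 5 Tsle (15.1 to 35.0%) and 55.6% in day 5 Tmp (44.7 to 66.0%), and 23.6% in day 7 Tsle (15.2 to 33.8%) and 40.3% in day 7 Tmp (28.1 to 53.6%). At day 45 it was 16.9% in Tem (11.0 to 24.3%) and 37.7% in Tcm (29.6 to 46.3%). In order of share, the intervals of all 12 neighbouring pairs of populations overlapped. The intervals of the 7 highest populations, from day 5 Tmp to Tcm, lay wholly above those of day 3, Tem, naive and distal cells.

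Cd69 was found in few cells outside the early response. It was found in 5.37% of naive cells (2.35 to 10.3%), 16.0% of first-division cells (10.4 to 23.0%), 3.61% in proximal daughters (0.752 to 10.2%) and 14.6% in distal daughters (6.07 to 27.8%). Day 3 gave the highest share, 25.2% (18.3 to 33.1%). The 8 later populations ran from 1.47% in Tem (0.179 to 5.21%) to 6.67% in day 5 Tmp (2.49 to 13.9%). The day 3 interval lay wholly above those of 10 populations, all but first-division and distal cells. The distal interval lay wholly above that of Tem alone.

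Tnfrsf9 was found mainly at days 2 and 3 and was not found in any day 7 Tsle, day 7 Tmp or Tem cell. It was found in 1.34% of naive cells (0.163 to 4.76%), 16.0% of first-division cells (10.4 to 23.0%), 10.8% in proximal daughters (5.08 to 19.6%) and 8.33% in distal daughters (2.32 to 19.98%), and in 15.4% of day 3 cells (9.90 to 22.4%). At day 5 the shares were 2.53% in Tsle, 4.44% in Tmp and 3.90% in unsorted cells. At day 7 it was found in 4 of 134 unsorted cells (2.99%), in 0 of 89 Tsle cells, which allows a share of up to 3.37% (exact upper end 4.06%), and in 0 of 62 Tmp cells (up to 4.84%, exact upper end 5.78%). At day 45 it was found in 0 of 136 Tem cells (up to 2.21%, exact upper end 2.68%) and in 1 of 138 Tcm cells. The intervals of first-division and day 3 cells each lay wholly above those of 8 populations, among them naive cells and all 3 of day 7.

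**Figure D1:**
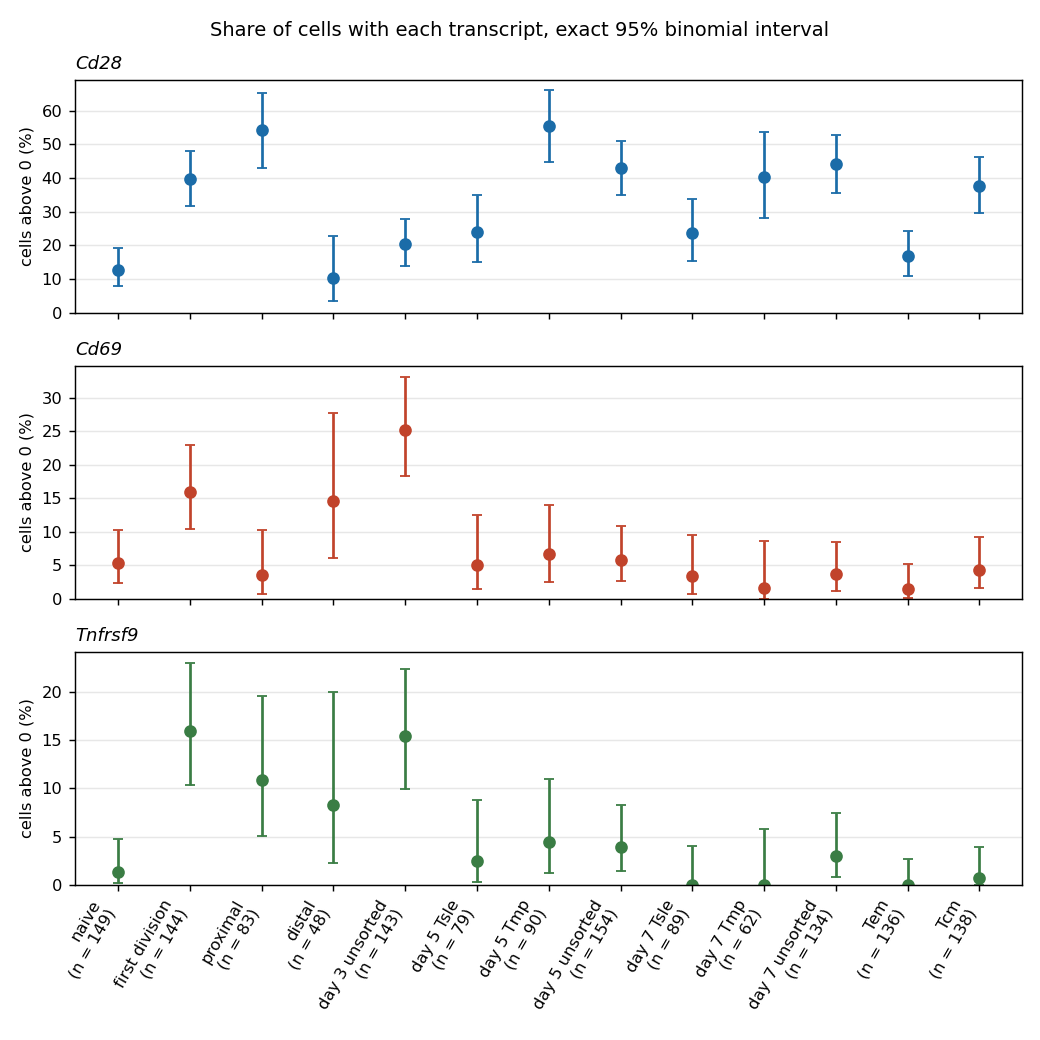
Percentage of cells with a deposited value above 0 (y axis) for Cd28, Cd69 and Tnfrsf9 in the 13 populations (x axis), with points for the share and bars for the exact 95% binomial interval over cells. Cd28 is highest at 54.2% in proximal cells, where no value exceeds 12, and 55.6% in day 5 Tmp cells, Cd69 is highest at 25.2% at day 3, and Tnfrsf9 at 16.0% in first-division and 15.4% in day 3 cells.

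Of Cd28 and Cd69, the 2 transcripts with enough cells to rank, Cd28 had the wider range of heights. Its median value in cells with the transcript was 7.69 in proximal cells (range 1.70 to 11.2) and 13.4 in distal cells (10.4 to 13.6). All 45 proximal cells with Cd28 lay below a value of 12, and 4 of the 5 distal ones lay above it. In the other populations the median ran from 11.6 in naive cells to 13.8 in day 7 Tmp cells. The range over the 13 populations, 6.09 cycles, was exceeded by 6 of 64 genes, counting genes with at least 5 cells above 0 in at least 5 populations, and the median gene had a range of 2.69 cycles. Proximal cells were lower across the panel as well: over 33 genes the median difference in height from distal cells was -1.79 cycles, and no gene differed by more than Cd28 (-5.71 cycles).

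Within single populations the height of Cd28 depended on the column. In naive cells it had a median of 13.2 in the 10 later cells with the transcript and 4.80 in the 9 earlier ones, and these 2 sets did not overlap. That difference of 8.35 cycles was the largest among 30 genes, whose median difference was 1.13 cycles. The share above 0 hardly differed there, with 13.3% of later and 12.2% of earlier naive columns. The earlier values reached no higher than 7.22 and the later ones began at 11.6. With detection at a value of 8, only later naive columns would keep Cd28. R18s (18S ribosomal RNA) moved the same way, with medians of 28.6 in later and 26.8 in earlier naive columns, and Actb (beta-actin) likewise, 19.7 and 18.9. At day 3 the Cd28 height was 13.8 in later and 10.3 in earlier columns, and in unsorted day 7 cells 13.3 and 10.3. The panel moved with it at day 3: the median difference over 44 genes was 1.87 cycles, and 8 genes differed by more than Cd28. In unsorted day 7 cells the median over 40 genes was 0.24 cycles, and 4 genes differed by more. In first-division and unsorted day 5 cells the later columns were higher by 1.18 and 0.94 cycles. In proximal and Tem cells the later columns were lower, by 2.09 and 1.68 cycles (differences -2.09 and -1.68). In day 5 Tsle and Tmp, day 7 Tsle and Tmp, and Tcm, the 2 sets of columns differed by less than 1 cycle. The part of the column sets in the differences between populations was not tested.

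Cd69 and Tnfrsf9 had fewer cells in which to measure height. The Cd69 median ran from 13.1 in naive cells to 15.0 in distal cells over the 8 populations with at least 5 cells above 0, a range of 1.89 cycles, and 50 of the 64 genes had a wider one. Its highest single value, 17.7, was in a day 3 cell. The Tnfrsf9 median was 12.9 in first-division, 14.0 in day 3 and 13.8 in unsorted day 5 cells. Proximal cells were again low, with a median of 10.9 in 9 cells, against 14.7 in the 4 distal cells with the transcript, and the 2 sets did not overlap.

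**Figure D2:**
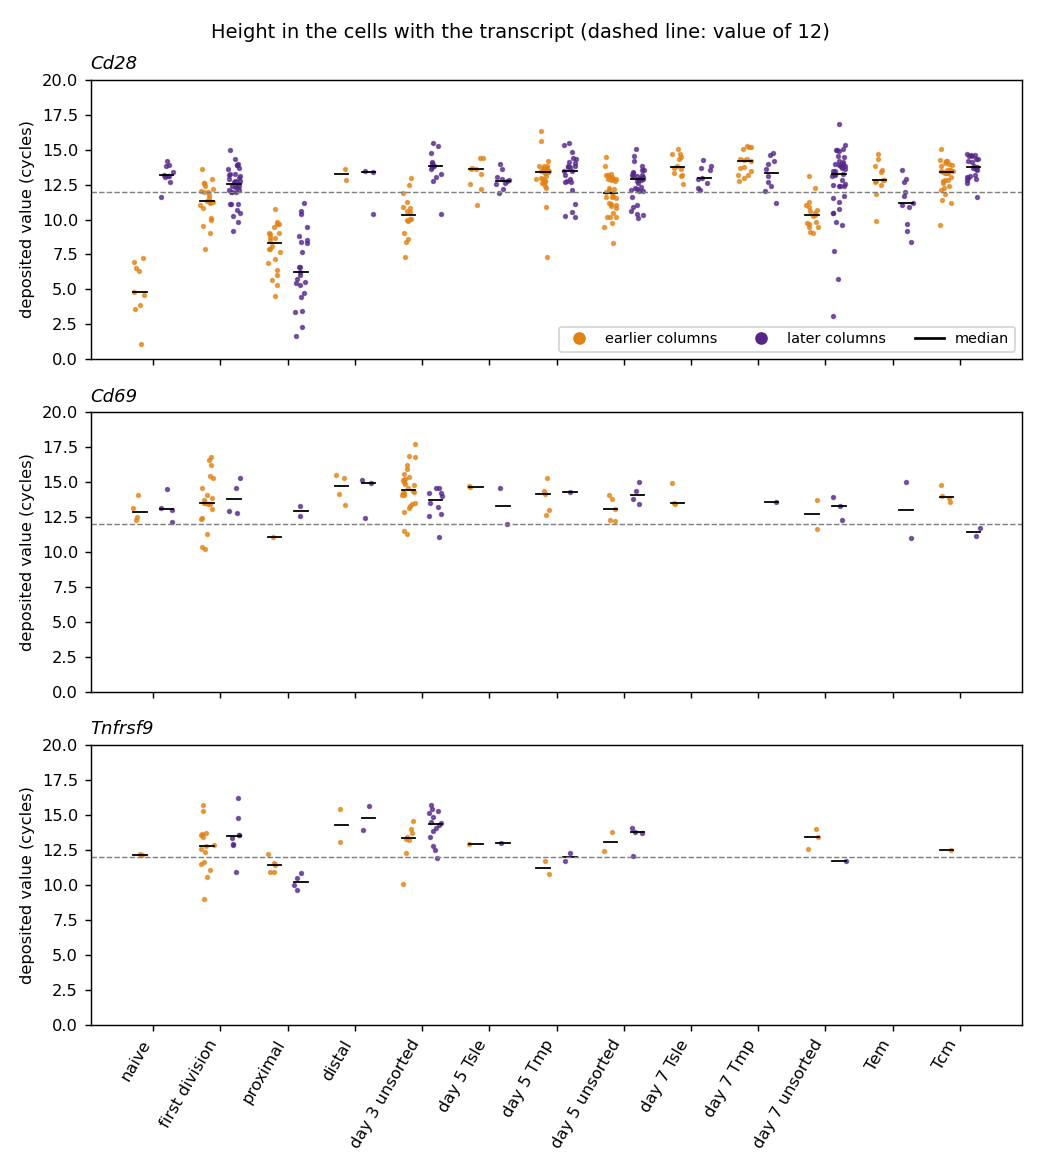
Deposited value in cycles (y axis) of every cell above 0 for Cd28, Cd69 and Tnfrsf9 in the 13 populations (x axis), with earlier columns in orange, later columns in purple, a black line at each median and a dashed line at a value of 12. All proximal Cd28 values lie under the dashed line, and the earlier naive Cd28 values, with a median of 4.80, lie under all later ones, with a median of 13.2.

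The file columns also bore on some shares. Cd69 was found in 4 of 72 later and 19 of 72 earlier first-division columns (5.56 and 26.4%), and in 10 of 72 later and 26 of 71 earlier day 3 columns (13.9 and 36.6%). Cd28 was found in 42 of 67 later and 17 of 67 earlier unsorted day 7 columns (62.7 and 25.4%). For Tnfrsf9 the widest gap was in first-division cells, 11.1% of later and 20.8% of earlier columns. No source used here says what the column order stands for, so the range over the 4 pairings of earlier and later columns is given beside the larger differences below, and the plot of differences shows it for all.

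Differences between populations were called at 20 percentage points of share, and the number of the 3 genes called was set beside the percentage of all 94 genes called. In first-division against naive cells 1 of the 3 genes was called, Cd28, against 13.8% of all genes. Its share was 39.6% in first-division and 12.8% in naive cells, 26.8 points higher, and the pairings ran from 18.6 to 35.1 points. Among cells with 10 to 20 other assays above 0 the difference was 12.3 points, and with detection set at Ct 28 (a value of 12) it was 14.8 points, which end the call. Between the earlier columns of both populations it was 19.8 points, just under the limit, and there Cd69 was the gene past it, at 20.98 points, where between the later columns it differed by 0.22 points. Over all columns Cd69 was higher by 10.6 points (pairings 0.15 to 21.1) and Tnfrsf9 by 14.6 points (8.41 to 20.8), without reaching the limit. In the list of costimulation, activation and receptor signalling, 5 of 15 measured genes were called higher and 0 lower in first-division cells, with a median difference of 10.5 points beside 4.51 points over all genes. Myc, a growth regulator, was found in 54.9% of first-division and 10.7% of naive cells, and the interleukin-2 receptor chain Il2ra in 45.1 and 4.70%. Of 6 genes of egress and homing, 1 was called higher and 3 lower, among them Klf2, a factor that maintains S1pr1 and quiescence, in 34.7% of first-division and 79.9% of naive cells.

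At day 3 against naive, 0 of the 3 genes were called, where 12.8% of all genes were, and Cd69 fell just short. Its share was 25.2% at day 3 and 5.37% in naive cells, 19.8 points higher, and the pairings ran from 8.48 to 31.3 points. Among cells with at least 10 other assays above 0 the difference was 20.2 points, past the limit. Tnfrsf9 was 14.04 points higher (pairings 8.56 to 19.4) and Cd28 7.53 points (4.72 to 10.4). The activation list had 6 of 15 genes called higher and 0 lower, with a median of 8.18 points beside 1.95 over all genes, and the egress list 0 higher and 3 lower, Klf2 among them.

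At days 5 and 7 Cd28 alone of the 3 genes was called against naive cells. In unsorted day 5 cells it was 30.1 points higher (pairings 29.5 to 30.7), where 17.0% of all genes were called. In unsorted day 7 cells it was 31.3 points higher (pairings 12.04 to 50.5), where 13.8% were called. The day 5 difference stayed past 20 points under each of the 6 alternatives of detection, assays and columns, the lowest being 21.2 points with detection at Ct 28. The day 7 difference was 18.6 points with detection at Ct 28 and 13.2 points between the earlier columns of both populations, which end the call. Cd69 differed from naive by 0.48 points at day 5 (pairings -0.21 to 1.16) and -1.64 points at day 7, and Tnfrsf9 by 2.55 and 1.64 points. The activation list had 2 of 15 genes called higher at day 5 (Il2rb and Il2ra) and 1 at day 7 (Il2rb).

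Memory cells differed in Cd28 and hardly in the others. In Tcm against naive cells Cd28 was 24.9 points higher (pairings 18.6 to 31.3), the call of 1 of the 3 genes beside 11.7% of all genes, and it was 28.02 points with detection at Ct 28; between the later columns it was 18.6 points, under the limit. In Tem against naive cells it was 4.16 points higher (pairings 2.84 to 5.48), and 0 of the 3 genes were called beside 10.6% of all genes. In Tem against Tcm it was 20.8 points lower, at 16.9% in Tem and 37.7% in Tcm (difference -20.8, pairings -27.3 to -14.2), beside 12.8% of all genes called. Among cells with 10 to 20 other assays the difference was -19.8 points and between the later columns -15.7 points, both short of the limit. Tem cells had fewer assays above 0 (median 10, against 16 in Tcm) and a lower Actb median (17.1 against 21.0), and 12 genes were called lower and 0 higher in Tem. The part of this in the Cd28 difference was not tested beyond the restriction by number of assays. Cd69 and Tnfrsf9 were each found in no more than 6 cells of either population.

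Proximal cells had Cd28 more often than distal cells but at a lower height than 4 of the 5 distal cells with the transcript. The share was 54.2% in proximal and 10.4% in distal cells, 43.8 points higher (pairings 41.2 to 46.4). This was the call of 1 of the 3 genes, beside 8.51% of all genes, and the second largest of the 94 differences. With detection at Ct 28 the shares were 0% of proximal and 8.33% of distal cells, a difference of -8.33 points, so the direction turned. At Ct 32 (a value of 8) they were 24.1 and 10.4%, 13.7 points apart. Cd69 ran the other way, in 3 of 83 proximal cells (3.61%) and 7 of 48 distal cells (14.6%), -11.0 points, with overlapping intervals. Tnfrsf9 was found in 9 of 83 proximal and 4 of 48 distal cells, 2.51 points higher in proximal cells. With detection at Ct 28 its shares were 1.20% of proximal and 8.33% of distal cells. That difference was -7.13 points, so its direction turned as well. Proximal cells also had more assays above 0 (median 17, against 12 in distal cells).

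Among effector subsets Cd28 was found less often in Tsle than in Tmp cells. At day 5 it was found in 19 of 79 Tsle and 50 of 90 Tmp cells, -31.5 points (pairings -36.9 to -26.1), the call of 1 of the 3 genes beside 5.32% of all genes, and 4th in size among them. The heights were close, 12.9 in Tsle and 13.4 in Tmp. The difference was -27.4 points with detection at Ct 28 and -32.3 points among cells with 10 to 20 assays, and it lay past 20 points in each pairing of columns. At day 7 Cd28 was found in 21 of 89 Tsle and 25 of 62 Tmp cells, -16.7 points (pairings -28.4 to -4.99), short of the limit, with overlapping intervals, and -21.1 points between the earlier columns. There 0 of the 3 genes were called beside 5.32% of all genes. Whether the day 5 and day 7 differences differ was not tested. The activation list had 0 of 15 genes called at either day. Cd69 was found in 4 of 79 Tsle and 6 of 90 Tmp cells at day 5, and in 3 of 89 and 1 of 62 at day 7. No source used here gives the gates behind Tsle and Tmp.

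**Figure D3:**
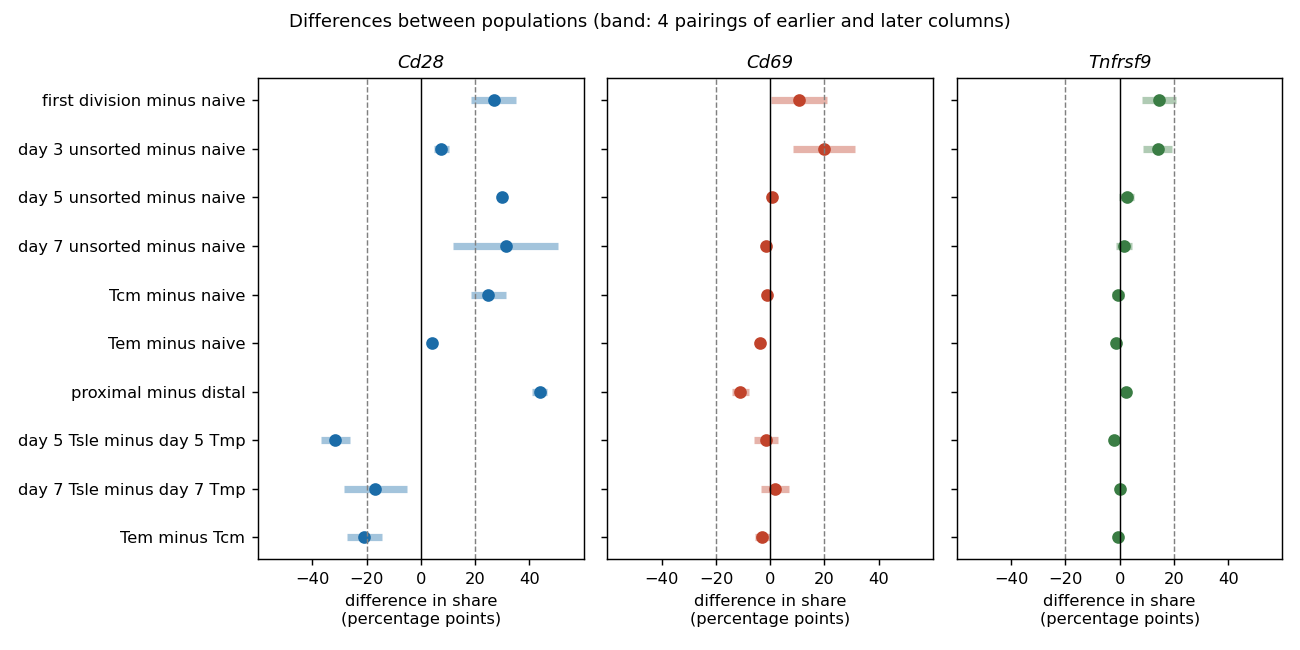
Difference in share in percentage points (x axis), first population minus second, for 10 pairs of populations (rows), with a point for all cells, a band from the lowest to the highest of the 4 pairings of earlier and later columns, and dashed lines at 20 points. Cd28 lies past 20 points in 7 rows, and the bands of 3 of them, those of day 5 unsorted, proximal and day 5 Tsle cells, lie wholly past it.

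Cells with more than 1 of the 3 transcripts were few. Of 1449 cells, 859 (59.3%) had none, 524 had exactly 1, 62 had exactly 2 and 4 had all 3. Cd28 and Cd69 were found together in 31 cells, where the product of their shares within each population, summed, gives 33.8 cells. Cd28 and Tnfrsf9 were found together in 27 cells, where the product gives 26.5. Cd69 and Tnfrsf9 were found together in 16 cells, where it gives 11.1, a ratio of 1.44 with a counting interval of 0.821 to 2.33. The ratio was 0.916 for Cd28 with Cd69 (0.622 to 1.30) and 1.02 for Cd28 with Tnfrsf9 (0.671 to 1.48). All 3 intervals hold 1, so neither joint nor separate detection was resolved at these numbers. With each population divided at its median number of assays, the ratio for Cd69 with Tnfrsf9 was 1.24.

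In first-division cells Cd28 and Cd69 were found together in 4 cells, where the product gives 9.10. Cd28 was found in 4 of 23 cells with Cd69 (17.4%, 4.95 to 38.8%) and 53 of 121 without it (43.8%, 34.8 to 53.1%). The direction was the same among later columns (1 of 4 with Cd69, 33 of 68 without) and earlier columns (3 of 19 and 20 of 53). Other populations went either way. At day 3 Cd28 was found in 8 of 36 cells with Cd69 and 21 of 107 without. In proximal cells all 3 cells with Cd69 had Cd28, and in day 5 Tmp 5 of 6 did. Joint cells were again fewer than the product in unsorted day 7 cells (1 found, product 2.20) and Tcm (1, 2.26). The same held for Tem (0, 0.338) and, narrowly, naive cells (1, 1.02). The 4 cells with all 3 transcripts are too few to describe further.

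Cells that carried Cd69 at day 3 had the egress factor Klf2 and the homing receptor Ccr7 less often than those that did not, and carried Cflar, Myc, Ccl4 and Rela more often. The genes named in this and the next 2 paragraphs outside the activation and egress lists were chosen after their values were seen. Of 93 other genes, 4 (4.30%) were at least 20 points more frequent in the 36 cells with Cd69 than in the 107 without, and 2 (2.15%) were less frequent. Klf2 was found in 6 of 36 cells with Cd69 (16.7%, 6.37 to 32.8%) and 48 of 107 without (44.9%, 35.2 to 54.8%). Ccr7, which guides cells to T cell zones, was found in 6 of 36 (16.7%) and 45 of 107 (42.1%). The direction was the same in both column sets, with the smaller gap in the earlier: Klf2 was in 0 of 10 later cells with Cd69 against 32 of 62 without, and in 6 of 26 earlier ones against 16 of 45. Myc was found in 23 of 36 cells with Cd69 (63.9%, 46.2 to 79.2%) and 42 of 107 without (39.3%, 29.95 to 49.2%), with 6 of 10 and 17 of 62 in later columns and a smaller gap, 17 of 26 and 25 of 45, in earlier ones. Cflar, which encodes an inhibitor of death receptor signalling, was found in 44.4 and 17.8%. Rela, a subunit of NF-kappa B, was found in 52.8 and 30.8%, and the chemokine Ccl4 in 38.9 and 16.8%. Lif, a cytokine of the interleukin-6 family, was found in 7 of 36 cells with Cd69 and in 0 of 107 without, which allows a share of up to 2.80% (exact upper end 3.39%). Il2, encoding interleukin-2, was found in 7 of 36 (19.4%) and 4 of 107 (3.74%). The median number of other assays was 17 in cells with Cd69 and 15 in those without, and its part was not tested.

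Cells that carried Tnfrsf9 at day 3 likewise had Klf2 less often, and had Il2ra in most cells. Klf2 was found in 3 of 22 cells with Tnfrsf9 (13.6%, 2.91 to 34.9%) and 51 of 121 without (42.1%, 33.2 to 51.5%). Il2ra was found in 18 of 22 (81.8%, 59.7 to 94.8%) and 54 of 121 (44.6%, 35.6 to 53.9%), and in both column sets more often with Tnfrsf9 than without (12 of 14 against 20 of 58 later, 6 of 8 against 34 of 63 earlier). The chemokine Xcl1 was found in 10 of 22 (45.5%) and 23 of 121 (19.0%), and Il2 in 5 of 22 (22.7%) and 6 of 121 (4.96%). Ccr7 did not follow the pattern seen with Cd69, at 45.5% with and 33.9% without Tnfrsf9. Of the 93 other genes 5 (5.38%) were at least 20 points more frequent with Tnfrsf9 and 1 (1.08%) less frequent. The median number of other assays was 18 with and 15 without Tnfrsf9.

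**Figure D4:**
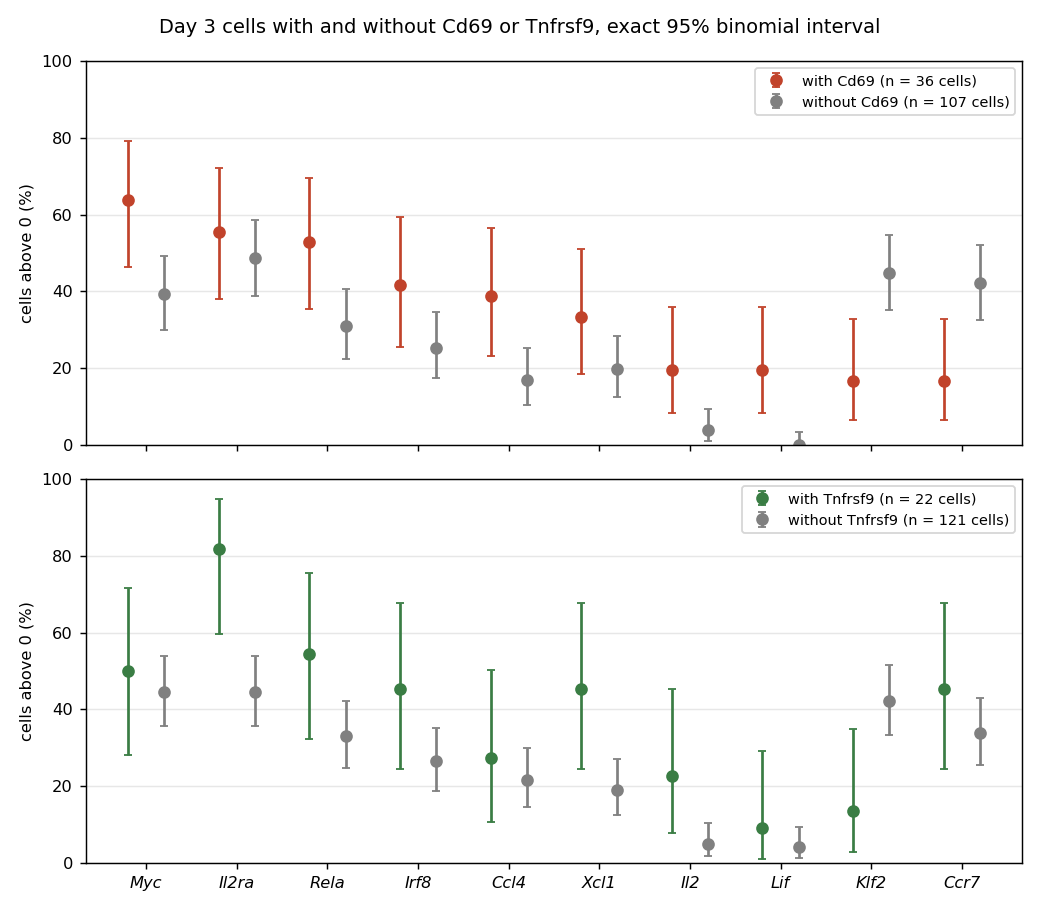
Percentage of day 3 cells with each of 10 other transcripts (y axis), in cells with and without Cd69 (upper panel, 36 and 107 cells) and with and without Tnfrsf9 (lower panel, 22 and 121 cells), with exact 95% binomial intervals. Klf2 is less frequent with either transcript (16.7 against 44.9% for Cd69 and 13.6 against 42.1% for Tnfrsf9), and Il2ra is far more frequent with Tnfrsf9 (81.8 against 44.6%).

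After the first division 5 cells had both Cd69 and Tnfrsf9, and the genes that went with each are given in turn. In the 23 cells with Tnfrsf9, 8 of 93 other genes (8.60%) were at least 20 points more frequent than in the 121 without, and 0 less frequent. Myc was found in 20 of 23 cells with Tnfrsf9 (87.0%, 66.4 to 97.2%) and 59 of 121 without (48.8%), the activation factor Irf8 in 14 of 23 (60.9%) and 29 of 121 (24.0%), and Serpinb9, an inhibitor of granzyme B, in 11 of 23 (47.8%) and 13 of 121 (10.7%). In the 23 cells with Cd69, 2 genes (2.15%) were more frequent and 8 (8.60%) less frequent. Ccl4 was found in 11 of 23 cells with Cd69 (47.8%) and 13 of 121 without (10.7%). Among the less frequent were Cxcr3 (4.35 against 31.4%), the interleukin-2 receptor chain Il2rb (30.4 against 53.7%), the activation factor Irf4 (21.7 against 42.1%) and the kinase gene Mapk14 (4.35 against 24.8%). Of the 23 cells with Cd69, 19 were in earlier columns. Within those, Ccl4 was found in 9 of 19 cells with Cd69 and 9 of 53 without. Il2rb was found there in 5 of 19 and 26 of 53. The gaps of the other less frequent genes named fell under 20 points within earlier columns. Cxcr3 was found in 1 of 19 and 7 of 53, Irf4 in 4 of 19 and 19 of 53, and Mapk14 in 1 of 19 and 9 of 53. The number of other assays was higher with Tnfrsf9 (median 20, against 17 without) and not with Cd69 (17 against 18).

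Cells with Cd28 at the first division had more transcripts of many kinds. The median number of other assays was 21 in first-division cells with Cd28 and 16 in those without, and 20 and 16.5 in proximal cells. In first-division cells 9 of 93 other genes (9.68%) were at least 20 points more frequent with Cd28, and in proximal cells 6 (6.45%), with 0 less frequent in either. Cxcr3 was found in 27 of 57 first-division cells with Cd28 and 12 of 87 without, and in 27 of 45 and 13 of 38 proximal cells. In naive, day 3 and all later populations no more than 2 genes were that far apart by Cd28, and the medians of other assays with and without it differed by no more than 2. Distal cells, with 5 carriers, were not compared.

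Over the 13 populations, the shares of Cd69 and Tnfrsf9 ran together and that of Cd28 ran apart from both. Spearman's rho between Cd69 and Tnfrsf9 was 0.80 over the 13 populations (Pearson's r 0.83), against -0.10 for Cd28 with Cd69 and 0.22 for Cd28 with Tnfrsf9. These values describe 13 populations measured with the same assays, whose number of assays found per cell differs, and carry no test. Among 77 genes found in at least 5% of some population, those most like Cd28 were Thy1, a T cell surface glycoprotein (rho 0.87, shares 18.8 to 65.6%), the chemokine receptor Cxcr3 (0.79, 4.17 to 68.8%) and Mela (0.76, 0 to 8.06%; 0.34 over shares above 12). Those most like Cd69 were Tnfrsf9, Rela (0.72) and the ribosomal protein gene Rpl35 (0.63). By Pearson's r, Tnfrsf9 ranked 5th, Rela 22nd and Rpl35 26th of the 77. Rpl35 differed by column in first-division cells. Of those without Tnfrsf9, 0 of 57 earlier and 26 of 64 later ones had Rpl35. Among those most like Tnfrsf9 were the E protein gene Tcf12 (0.85) and Rela (0.83), which ranked 7th and 19th by Pearson's r. The median number of other assays per cell had a rho of 0.64 with Cd28, 0.32 with Cd69 and 0.57 with Tnfrsf9. The number of assays found per cell thus moved with Cd28 and Tnfrsf9, and less so with Cd69.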

How the data were processed

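The authors deposited 1 table of 95 assay rows and 1449 cells in log2 units, on the scale of PCR cycles. Per the labels' protocols, single cells were sorted into a reverse transcription mix, preamplified over 18 cycles with the pooled TaqMan assays and, after 5-fold dilution, read on Fluidigm arrays. The labels call the values Ct, but they grow with template, so they were taken to be 40 minus Ct; this offset is an inference. The conversion, the layout of arrays and the selection of cells: not given in the sources used here. Names follow the RefSeq accession (93 of 95 rows matched, GRCm38.p6), and Il2, measured by 2 rows, was taken from the first. Computation used scipy 1.17.1 with numpy 2.4.6 under Python 3.11.15, and figures matplotlib 3.10.9.

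Shares of cells above 0, exact intervals and heights were computed per population. The size rule was 20 percentage points. The genes to name were the 3 genes, listed activation and egress genes, and the 3 most alike in share; some of these are not reported here. The 3 genes and the lists were chosen with earlier results of these data known. Alternatives were detection at Ct 32 and 28, cells with at least 10 or with 10 to 20 other assays, earlier or later columns alone, size limits of 10 and 30 points, means, and other correlations.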

Additional observations from a re-analysis of the deposited data

Results flagged for a closer look

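The Cd69 share in Tsle minus Tmp cells had opposite signs at the 2 times, -1.60 points at day 5 (4 of 79 Tsle and 6 of 90 Tmp cells) and 1.76 points at day 7 (3 of 89 and 1 of 62 cells), each population being 1 sample. The difference between the times was not tested, and the intervals of the shares overlapped at both.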

How the results depend on the processing

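The number of the 3 genes at least 20 points apart changed as follows. With detection at Ct 28 it was 0 for first-division against naive, day 7 against naive and proximal against distal cells (1 each by any value above 0), and the proximal against distal difference in Cd28 turned to -8.33 points. With detection at Ct 32 it was 0 for proximal against distal cells. With at least 10 other assays per cell it was 1 at day 3 (0 over all cells), and with 10 to 20 assays it was 0 for first-division against naive and for Tem against Tcm (1 each over all cells). In the earlier columns it was 1 at day 3 and 1 for day 7 Tsle against Tmp (0 each over all columns), and 0 at day 7 against naive. In the later columns it was 0 for Tcm against naive and Tem against Tcm. With a limit of 10 points it was 3 for first-division, 2 for day 3, 2 for proximal and 1 for day 7 Tsle cells; with 30 points it was 0 for first-division and Tcm against naive and for Tem against Tcm. In the earlier columns the first-division count stayed 1, but the gene was Cd69 in place of Cd28. The ratios of joint detection stayed within their intervals under the 6 alternatives tried. Of the 9 genes named as most alike, 3 stayed among the first 3 by Pearson's r, all of them those of Cd28. No paired analysis was possible because each population is 1 sample. The number of cells, 48 to 154 a population, limits the precision of the shares.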
